A study of Homo sapiens with 14 samples.

Results

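Interferon-stimulated genes are genes whose transcription rises when a cell senses interferon. The 58 genes described here are commonly used members of this group, taken by gene symbol from the deposited tables, and all 58 had a row among the 57820 annotated genes. They were divided by textbook role into 9 groups: sensors and antiviral enzymes, the IFIT family, the IFI family with MX1, transcription factors, the ISG15 system, TRIM, PML and SP100, antigen presentation, PARP and SAMD9 genes, and membrane and GTPase effectors.

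Type I interferon binds a receptor at the cell surface, and the kinases JAK1 and TYK2 then pass the signal to transcription factors that include STAT2. STAT2 and IRF9 act in the complex ISGF3, which binds the interferon-stimulated response element (ISRE) in promoters. HEK293T cells, a human embryonic kidney line that carries viral oncogenes, are known for weak sensing of nucleic acids. Several of the genes, among them HLA-B, HLA-C, B2M, ADAR and IRF3, are also transcribed in cells that have met no interferon.

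Poly(A) RNA of HEK293T cells was measured with AMUC-seq, in which 4-thiouridine (s4U) is fed to cells, enters new RNA, and is cyanoethylated by acrylonitrile so that it is read as C in place of T. In 1 experiment, 8 libraries covered 4 groups of 2 replicates. Untreated cells received neither s4U nor acrylonitrile, the s4U group received 50 µM s4U for 24 h, the acrylonitrile group was treated with acrylonitrile after RNA extraction but received no s4U, and the combined group received both. The labels of the combined group give 500 µM s4U, the protocol 50 µM, and the comparison of this group with acrylonitrile alone is given with that doubt. In the other experiment, 6 libraries covered 0, 4 and 8 µM PDP, a small molecule that interacts with G-quadruplexes, with 2 replicates each. All 6, those at 0 µM included, received 500 µM s4U for 1 h and acrylonitrile, and PDP was added 20 min before s4U. The labels do not say whether replicates were separate cultures, so p-values measure only the spread between these libraries.

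The libraries of the first experiment held 6074118 to 17228999 fragments, and those of the PDP experiment 9770956 to 22363992. All 6 markers fixed for the HEK293T line were detected in all 14 libraries, though PAX2, LHX1, NEFL and NEFM were lower after 24 h of s4U. The leukocyte markers PTPRC and CD3E, which would mark blood cells with high levels of these genes, were at 0 in every library except for PTPRC at 0.08 CPM (fragments per 1000000 fragments in genes) in 1. The 5 liver markers checked summed to 69.6 and 179.9 CPM in the acrylonitrile libraries, 24.2 and 46.7 in the combined group, 7.43 to 16.3 in the 4 libraries without acrylonitrile and 0.435 to 0.894 in the PDP experiment. The part of this RNA in the comparisons was not tested.

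Promoter sequence was available for 45 of the 58 genes (RefSeq, GRCh38.p14; DDX58 under its present symbol RIGI), as windows from 250 bases before to 50 bases after each annotated start. The ISRE core, searched as 2 GAAA half-sites with any 2 bases between them, on both strands, was present for 29 of the 45 genes (64.4%), against 4.38% of all 27305 genes with such a window and 3.57% of all 35116 windows. The GAS element of interferon gamma responses, searched as TTCNNNGAA, was present for 10 of them (22.2%), against 9.38% of all genes and 7.66% of all windows. A G-quadruplex pattern, 4 runs of at least 3 G with loops of 1 to 7 bases on either strand, was present for 14 (31.1%), against 27.9% of all genes and 25% of windows, so this share lay near that of genes at large. A match describes the letters of the window and is not evidence that the site is bound.

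Shown here is 1 ISRE each of genes on which the results turn, with 10 flanking bases on each side, 5′ to 3′ and the ISRE core in capitals. They were chosen for holding the core. IFI35, DDX58, UBE2L6 and HERC6, which also changed after s4U, hold none in this window. The first 6 belong to genes that were higher after 24 h of s4U.
ISG20 (chr15:88638937-88638966, plus strand): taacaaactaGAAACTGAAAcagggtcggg
PARP12 (chr7:140062942-140062971, plus strand): ggcgggaaacGAAACCGAAAgcggccccgg
IFI27 (chr14:94110631-94110660, plus strand): cggtttcctgGAAAATGAAAcctatctcat
B2M (chr15:44711369-44711398, plus strand): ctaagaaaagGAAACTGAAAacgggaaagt
IFITM1 (chr11:314024-314053, plus strand): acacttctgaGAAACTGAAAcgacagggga
ISG15 (chr1:1013380-1013409, plus strand): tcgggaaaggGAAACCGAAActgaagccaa
The next 6 lines belong to genes that were lower. PARP9 and DTX3L lie head to head and share the window that holds theirs.
OAS3 (chr12:112938452-112938481, plus strand): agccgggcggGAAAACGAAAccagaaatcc
PARP9 and DTX3L (chr3:122564322-122564351, plus strand): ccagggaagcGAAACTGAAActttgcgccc
BST2 (chr19:17405741-17405770, minus strand): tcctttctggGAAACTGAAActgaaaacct
HERC5 (chr4:88457035-88457064, minus strand): agctccagtgGAAAACGAAAcataatgttt
IFIT1 (chr10:89392510-89392539, minus strand): gaaacctaggGAAACCGAAAggggaaagtg
IFITM3 (chr11:320876-320905, minus strand): aaactgttgaGAAACCGAAActactgggga

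In untreated cells the genes spanned a wide range of levels. In fragments per kilobase of transcript and 1000000 fragments (FPKM), the highest were HLA-C at 129 and HLA-B at 81.4, the heavy chains of class I antigen presentation. They were followed by IRF3 at 52.7, a transcription factor activated by viral RNA and DNA, by B2M at 49.9, the light chain of class I molecules, and by ADAR at 48.2, which edits adenosine to inosine in double-stranded RNA. The median over the 58 genes was 2.58 on this scale, and 35 genes reached 1. At the other end, 6 genes had no fragment in either untreated library (OAS1, OAS2, PARP14, XAF1, SAMD9L and SP100), and 15 had fewer than 10 fragments in the pair. In the cells of the PDP experiment at 0 µM, 30 genes reached 1 FPKM, 9 had no fragment and HLA-C was highest at 199. Single genes differed widely between untreated cells and the cells at 0 µM PDP, as with B2M at 49.9 and 4.85 FPKM and IFI27 at 9.05 and 1.65 FPKM. The RNA at 0 µM PDP had met s4U and acrylonitrile. It was scaled to all fragments of a library, and untreated RNA to fragments in genes. These differences and that between the experiments cannot be told apart here. B2M was also lower with acrylonitrile alone than in untreated RNA of the first experiment. The ligands IFNA1, IFNA2, IFNB1, IFNG and IFNL1 were at 0 in all 14 libraries, and IFNE did not exceed 0.135 CPM.

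The first comparison asks what 24 h of s4U does to these genes in RNA that met no acrylonitrile. The 2 s4U libraries stood apart from each other, with a chi-square over its degrees of freedom of 58.2 between them against 1.07 between the untreated libraries, and their HEK293T marker sums were 273 and 467 CPM against 665 and 676 CPM. The part of this in the calls was not tested beyond leaving out each library. Of the 58, 43 passed the filter on low counts, 11 were higher and 19 lower, and 13 did not pass an adjusted p of 0.05 (edgeR's quasi-likelihood test, Benjamini-Hochberg over 18914 genes). Among all genes tested 35.8% were higher and 34.7% lower, 70.5% in all, so that most genes of the cell were called in this comparison. Among the interferon-stimulated genes the shares were 25.6% and 44.2%, and their median log2 fold change was -0.36 against 0.02 for all genes. Of those called lower, SAMD9 and IFI44L passed the filter through the untreated libraries alone, so their calls are not support for a change. The fold changes rest on TMM scaling and so lie above the ratios of the printed levels. With the plain totals of gene fragments, the median of all genes moved to -0.26, and 6 of the genes were higher and 23 lower. In bulk RNA, fewer cells with a transcript and less of it in each cell cannot be told apart.

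**Figure D1:**
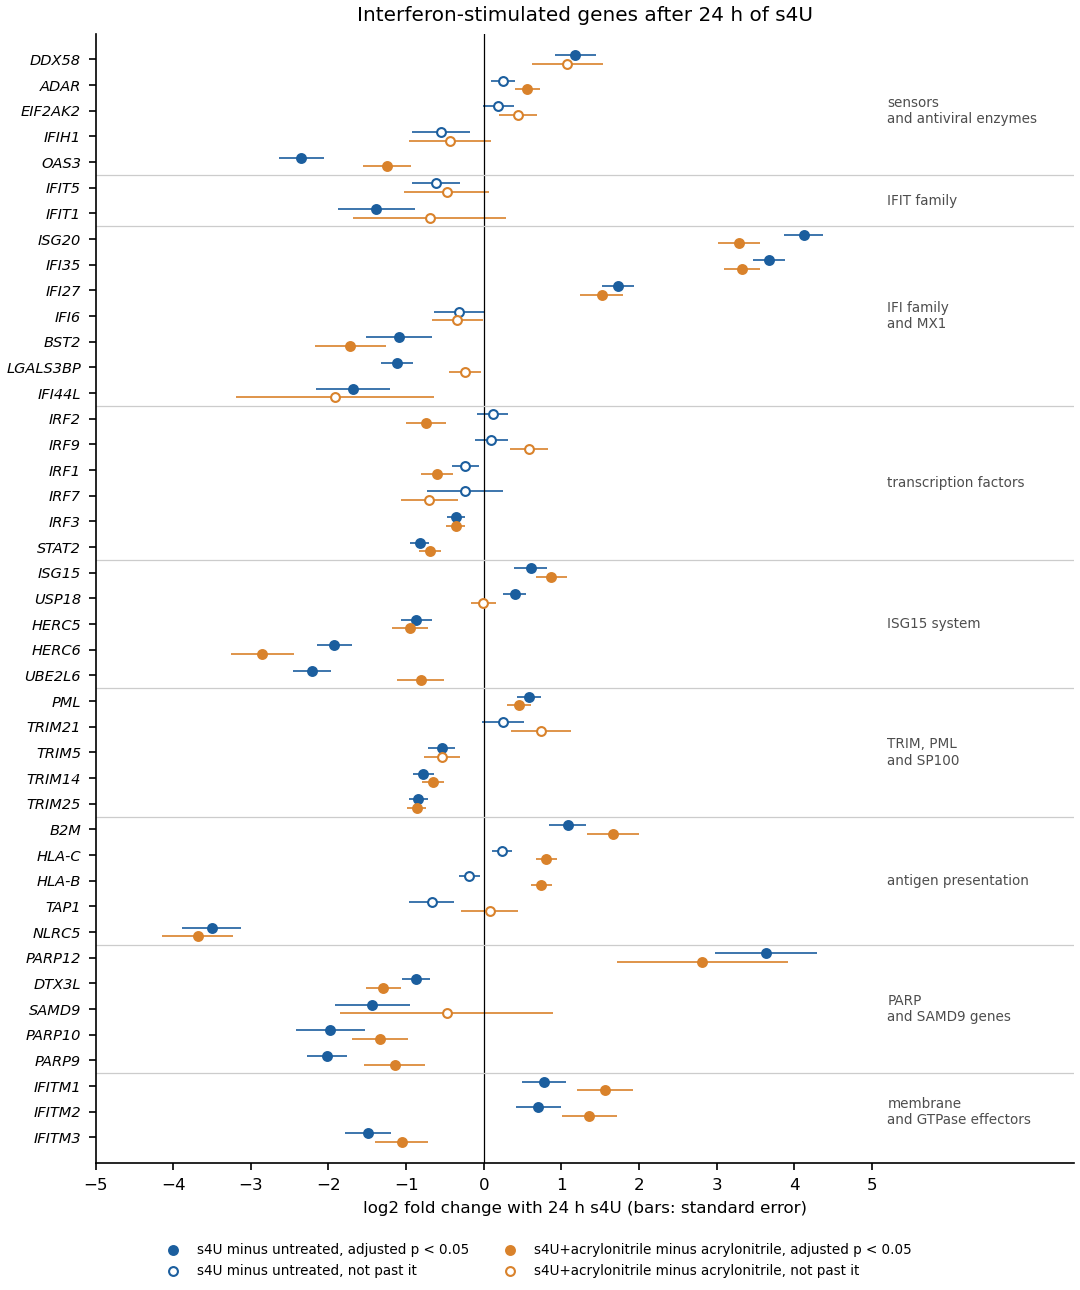
Log2 fold change after 24 h of s4U for the genes tested, grouped by role, without acrylonitrile and within acrylonitrile-treated RNA; bars are standard errors and filled points passed an adjusted p of 0.05. ISG20, IFI35 and PARP12, the last with few fragments, lie farthest to the right and NLRC5 farthest to the left in both comparisons.

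Of ISG15, IFIT1, IFIT2, IFIT3, MX1 and OAS1, often used as readouts of interferon, ISG15 alone was called higher. ISG15 encodes a ubiquitin-like protein that is conjugated to other proteins. It stood at 5.47 and 5.30 CPM in untreated cells and at 5.78 and 7.69 after s4U, a log2 fold change of 0.60 ± 0.21 (SE; edgeR adjusted p = 0.0277). The groups did not overlap, but the call was lost under 5 of 11 alternatives, namely plain library totals (0.33), DESeq2 (0.65) and leaving out untreated replicate 1 (0.62), untreated replicate 2 (0.57) or s4U replicate 2 (0.45). IFIT1, an RNA-binding protein that blocks translation of viral mRNA, was at 3.03 and 5.02 in untreated cells and at 1.13 and 1.38 after s4U (log2 fold change -1.38 ± 0.50, edgeR adjusted p = 0.0299). This call was lost without untreated replicate 2, at -0.99, and with DESeq2, at -1.35. IFIT2 and IFIT3, of the same family, had 1 and 3 and then 3 and 9 fragments in untreated cells, and 2 and 1 and then 3 and 2 after s4U, and were not tested. The GTPase MX1 had 5 and 4 fragments without s4U and 2 and 3 with it. OAS1, XAF1 and SAMD9L had no fragment in any of the 8 libraries, which allows up to 3 fragments per library by counting error alone.

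The genes that were higher after s4U were led by ISG20 and IFI35. ISG20, an exonuclease that degrades single-stranded RNA, stood at 5.05 and 2.79 CPM in untreated cells and at 46.0 and 67.9 with s4U. This is a log2 fold change of 4.12 ± 0.25 (edgeR adjusted p = 6.92e-07). IFI35, a leucine-zipper protein, went from 2.95 and 4.84 to 37.6 and 43.7, a log2 fold change of 3.67 ± 0.20 (edgeR adjusted p = 4.05e-07). Both genes lay far outside the untreated range in each s4U library. PARP12, a mono-ADP-ribosyltransferase, had 2 and 1 fragments in untreated cells and 18 and 25 with s4U. It passed the filter through the s4U libraries alone, so its call is not support for a change, and its level was 11.4 times higher with an exact counting interval of 3.64 to 57.3.

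IFI27, a mitochondrial protein, B2M and the RNA sensor DDX58 (RIG-I) followed. IFI27 was at 5.98 and 6.98 CPM without s4U and at 19.3 and 15.7 with it (log2 fold change 1.73 ± 0.21, edgeR adjusted p = 4.52e-05). DDX58 was at 4.63 and 6.23 and then at 9.76 and 10.4 (1.18 ± 0.26, adjusted p = 0.00256). B2M was at 46.2 and 47.9 and then at 96.1 and 65.7 (1.08 ± 0.24, adjusted p = 0.0023). In none of these 3 genes did the groups overlap, and ISG20, IFI35, IFI27, DDX58 and B2M were called under all 11 alternatives. IFITM1, IFITM2, PML and USP18 were higher by log2 fold changes of 0.40 to 0.78, and the calls of IFITM1 and IFITM2 were lost without s4U replicate 1 (0.26 and 0.15) and without either untreated library (0.68 to 0.79). IFITM1 and IFITM2 overlap on the same strand, so fragments of one cannot be cleanly divided from the other.

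The upstream neighbors on the same strand also changed for several of these genes. AEN ends 3871 bp before ISG20 and was higher by a log2 fold change of 2.29, RPL27 ends 3766 bp before IFI35 and was higher by 2.20, and IFI27L1 ends 990 bp before IFI27 and was higher by 0.91. TOPORS, 14220 bp before DDX58, was higher by 1.58, whereas JHDM1D, 21025 bp before PARP12, was lower (-1.03). Whether fragments that run on from a neighbor enter the counts of these genes was not tested.

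The genes that were lower were led by NLRC5, the transactivator of class I antigen presentation genes. It stood at 12.3 and 9.03 CPM in untreated cells and at 0.375 and 1.12 after s4U, a log2 fold change of -3.51 ± 0.39 (edgeR adjusted p = 2.4e-05). OAS3, which makes 2′-5′-linked oligoadenylate on double-stranded RNA, fell from 6.23 and 6.42 to 0.826 and 1.18 (-2.35 ± 0.29, adjusted p = 4.9e-05). The groups lay far apart for both genes. HERC6, an E3 ligase of the HERC family, fell from 10.3 and 10.1 to 1.88 and 2.50 (-1.92 ± 0.23, adjusted p = 4.18e-05), and UBE2L6, the conjugating enzyme for ISG15, from 10.8 and 9.03 to 1.65 and 1.84 (-2.21 ± 0.25, adjusted p = 2.88e-05). With HERC5 (-0.87 ± 0.20), the main ligase for ISG15, these genes were lower. USP18, the protease that removes ISG15, was called higher (0.40 ± 0.15), but its levels overlapped at 15.3 and 13.9 CPM untreated and 15.2 and 16.5 CPM with s4U, and the call was lost without either untreated library (0.47 and 0.32).

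PARP9, a partner of the ubiquitin ligase DTX3L, was at 9.85 and 9.86 CPM in untreated cells and at 1.80 and 2.17 after s4U, a log2 fold change of -2.02 ± 0.26 (edgeR adjusted p = 7.04e-05). PARP10 was at 3.12 and 2.98 and then at 0.526 and 0.723 (-1.97 ± 0.44, adjusted p = 0.00241). Of the 5 PARP and SAMD9 genes tested, 4 were called lower, DTX3L and SAMD9 among them. SAMD9 had a low level, at 0.260 and 0.383 FPKM in untreated cells and 0.0441 and 0.145 with s4U. Its call was lost without untreated replicate 2 (-1.16) and without s4U replicate 1 (-0.91). SAMD9 passed the filter through the untreated libraries alone, so its call is not support for a change. The same holds for IFI44L, at 0.260 and 0.319 FPKM in untreated cells and 0.0773 and 0.0677 with s4U. The fifth gene, PARP12, was called higher, a call that is not support for a change. Of the IFITM genes, whose proteins block the entry of enveloped viruses, IFITM3 was lower (4.72 and 3.72, then 1.35 and 1.12) where IFITM1 and IFITM2 were higher. BST2, a membrane tether of budding virions, was lower at -1.09 ± 0.43, a call lost under 7 of 11 alternatives.

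Among the transcription factors no gene was higher. STAT2, the activating subunit of ISGF3, stood at 43.1 and 40.4 CPM in untreated cells and at 18.2 and 20.5 after s4U (log2 fold change -0.83 ± 0.13, edgeR adjusted p = 0.000209). IRF9, its DNA-binding partner, stood at 9.43 and 10.8 and then at 6.98 and 10.8, with overlapping groups (0.10 ± 0.21, adjusted p = 0.704). IRF1, itself an early target of interferon gamma, was at 11.5 and 10.9 and then at 7.28 and 8.35 (-0.24 ± 0.17, adjusted p = 0.244). IRF3 was called lower at -0.36 ± 0.12, lost its call under 5 of 11 alternatives and turned to 0.15 when the GC content of each gene was added as a term per library, an alternative chosen after seeing the data.

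HLA-B was at 123 and 127 in untreated cells and at 76.1 and 105 after s4U, and HLA-C at 192 and 206 and then at 199 and 183. Neither passed the test (-0.19 ± 0.14 and 0.23 ± 0.13, edgeR adjusted p = 0.247 and 0.137). TAP1, a subunit of the peptide transporter, was at 12.1 in both untreated libraries and at 3.90 and 8.62 after s4U (-0.67 ± 0.29, adjusted p = 0.0617). EIF2AK2 (PKR), the kinase that stops translation on double-stranded RNA, was at 71.9 and 64.6 and then at 68.9 and 58.0 (0.19 ± 0.20, adjusted p = 0.424), ADAR at 328 and 310 and then at 247 and 378 (0.24 ± 0.16, adjusted p = 0.186). The sensor IFIH1 (MDA5) was at 2.11 and 2.98 and then at 0.976 and 1.84 (-0.55 ± 0.37, adjusted p = 0.209).

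The second comparison asks the same of RNA that was treated with acrylonitrile, and shares no library with the first. Here 12 of 43 genes were higher and 16 lower, or 27.9% and 37.2%, against 33.2% and 31.1% of all genes tested, 64.2% in all. The median was -0.43 for these genes and 0.05 for all genes, and with plain totals -0.21 for all genes. Of these, 9 genes were higher in both comparisons (B2M, IFI27, IFI35, IFITM1, IFITM2, ISG15, ISG20, PARP12 and PML), which is 81.8% of the first list and 75% of the second. Another 14 were lower in both, or 73.7% and 87.5%, and 0 changed in opposite directions. Leaving out any 1 library of this comparison took the lower genes from 16 to 9 or 10. Of the 14 lower in both, BST2, HERC5, IFITM3, IRF3, OAS3, PARP9, PARP10, TRIM14 and UBE2L6 lost their call within acrylonitrile without at least 1 library, at log2 fold changes of -1.39 to -0.26. Of the 9 higher in both, PML lost its call without acrylonitrile replicate 1 (0.43) or combined replicate 2 (0.44). IFITM2 lost its call without acrylonitrile replicate 2 (1.30) or combined replicate 1 (1.10). PARP12, also among the 9, passed the filter through the s4U libraries alone and is not support for the overlap.

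ISG20 stood at 5.8 and 6.24 CPM with acrylonitrile alone and at 45.4 and 52.3 in the combined group (log2 fold change 3.28 ± 0.27, edgeR adjusted p = 5.55e-06). IFI35 stood at 3.81 and 4.32 and then at 35.6 and 32.2 (3.33 ± 0.23, adjusted p = 2.11e-06), and NLRC5 at 13.6 and 8.88 and then at 0.661 and 0.809 (-3.69 ± 0.45, adjusted p = 6.93e-05). The changes that led the first comparison thus led the second as well. HERC6 fell from 3.44 and 4.08 to 0.441 and 0.405 (-2.85 ± 0.41, adjusted p = 0.000181), and B2M rose from 6.53 and 5.76 to 20.8 and 11.9 (1.67 ± 0.34, adjusted p = 0.00163). ISG15 stood at 11.4 and 16.3 and then at 21.9 and 20.1 (0.87 ± 0.21, adjusted p = 0.00407), a call kept under all 11 alternatives. The level of B2M was lower, and that of ISG15 higher, with acrylonitrile alone than in untreated RNA, so levels are not set across the 2 comparisons.

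IFIT1 was at 1.09 and 0.480 with acrylonitrile alone and at 0.771 and 0 in the combined group, with no call (edgeR adjusted p = 0.554). IFIT2 and IFIT3 had no fragment in either library of the combined group. STAT2 was lower again, from 26.8 and 24.7 to 13.8 and 12.9 (log2 fold change -0.69 ± 0.14, edgeR adjusted p = 0.00183), and IRF1 now passed as lower, from 10.7 and 11.0 to 5.62 and 6.34 (-0.60 ± 0.20, adjusted p = 0.0239). The call of IRF1 was lost without either acrylonitrile library (-0.57 and -0.53) and without replicate 1 of the combined group (-0.44). DDX58 did not pass (1.08 ± 0.45, adjusted p = 0.0599). PARP12 rested on 0 and 1 fragments against 4 and 7, a level 6.46 times higher with an exact counting interval of 0.939 to 278, and was called under 4 of 10 alternatives. Without acrylonitrile replicate 1 or without replicate 2 of the combined group its log2 fold change was 1.75 or 2.26, with no call. The liver markers SERPINA1, ALB and AFP were also lower in this comparison (-1.78, -1.67 and -1.29), and their part in it was not tested.

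The 2 comparisons differed in the class I heavy chains. HLA-B rose from 245 and 231 CPM with acrylonitrile alone to 321 and 344 in the combined group (log2 fold change 0.74 ± 0.14, edgeR adjusted p = 0.000948), and HLA-C from 388 and 384 to 563 and 564 (0.81 ± 0.13, adjusted p = 0.000451). For HLA-B the difference of the s4U effects was 0.93 ± 0.19 (interaction term in edgeR, adjusted p = 0.0484), the 1 gene of the 43 that passed, against 1.28% of all genes higher and 0.354% lower, 1.64% in all. It was called under 6 of 14 alternatives, with values of 0.78 to 1.11, and lost its call without any 1 library of the untreated, acrylonitrile or combined group (0.92 to 1.10). The difference for HLA-C was 0.57 ± 0.19 (adjusted p = 0.160) and for UBE2L6 1.40 ± 0.40 (adjusted p = 0.115). Reads of HLA-B and HLA-C can be shared between class I genes, which limits both values.

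**Figure D2:**
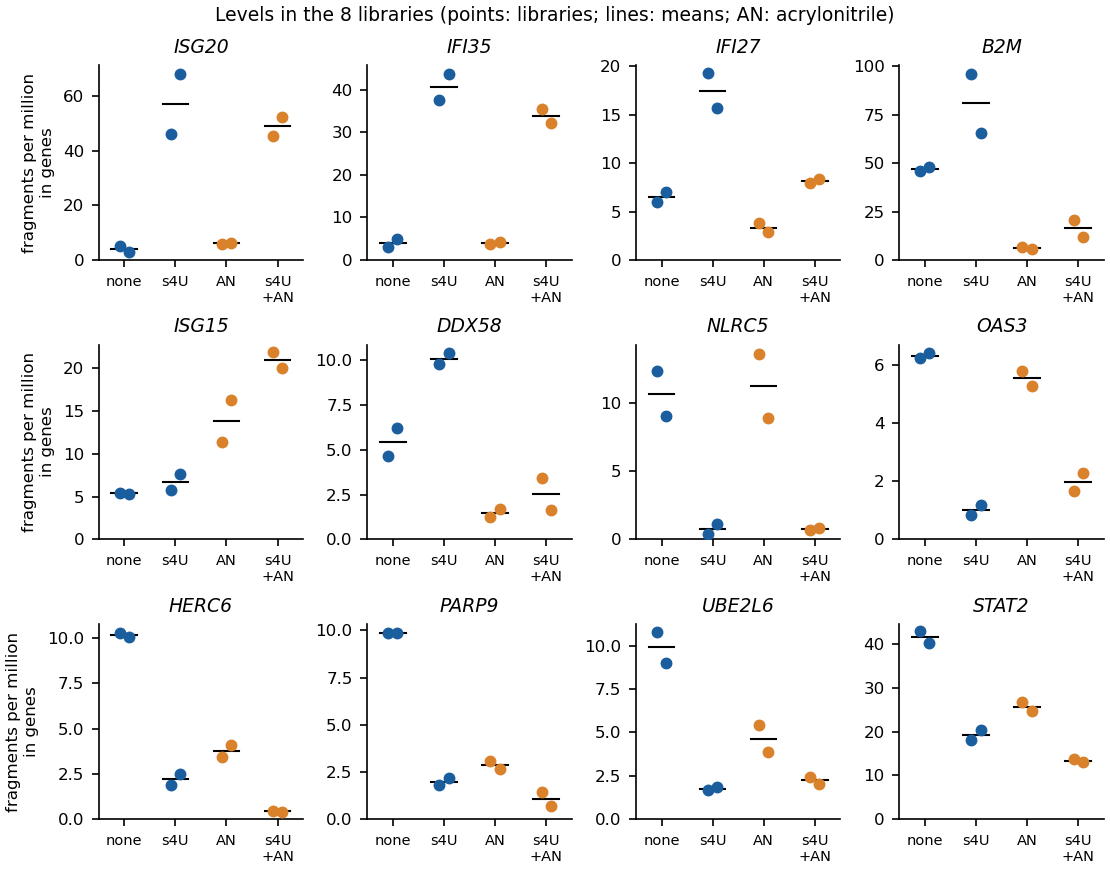
CPM in each of the 8 libraries for selected genes, on linear axes from 0; each point is 1 library without treatment (none), with s4U, with acrylonitrile (AN) or with both, and lines are means. ISG20 and IFI35 are high in the 4 libraries with s4U, NLRC5 is low in them, and B2M is also lower in the 4 libraries with acrylonitrile.

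Of the 24 tested genes with an ISRE in the promoter window, 6 were higher and 12 lower after s4U without acrylonitrile, and of the 11 tested genes with a window and no ISRE, 2 were higher and 4 lower. Within acrylonitrile, 6 of the 24 were higher and 7 lower, and 4 of the 11 were higher and 5 lower. The larger share of lower genes thus lay with the ISRE in the first comparison and without it in the second. The 24 include PARP12, SAMD9 and IFI44L, which passed the filter only through the group where they were higher. Other genes of the pathway were taken from lists. Of 13 receptors, kinases and feedback genes tested, 5 were higher and 7 lower, with SOCS1 (-2.56) and SOCS3 (-2.31) among the lower and IFNAR1 (1.22) among the higher, and 4 were higher and 6 lower within acrylonitrile. SOCS1 and SOCS3 are feedback inhibitors of JAK kinases that are themselves induced by cytokines. Of 10 sensing adaptors and kinases tested, 4 were higher and 4 lower, among them DHX58 (2.05), TRAF6 (1.72), IKBKE (-1.69) and MAVS (-1.37), and 4 were higher and 3 lower within acrylonitrile. All these counts stand beside 35.8% of all genes higher and 34.7% lower without acrylonitrile, and 33.2% and 31.1% within it.

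The mismatch counts show how much of each transcript carried s4U after 24 h. In the combined group, 27 of the genes had at least 20 fragments in both libraries. The median share of marked fragments, those with 1 mismatch or more, was 90.3%, against 91.7% for all 13786 genes with that depth, whose quartiles were 85.8% and 94.4%. The gene-level tables do not name the kind of mismatch, and it is read here as T-to-C. In the acrylonitrile libraries, which had no s4U, 7.65% of all gene fragments carried a mismatch.

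Most of the genes were close to fully marked, and 9 of the 27 lay under the lower quartile of all genes. DTX3L was marked in 25 of 26 fragments and 22 of 22, so that its shares were 96.2% (95% Wilson interval 81.1 to 99.3) and complete (lower bound 85.1). IRF9 was marked at 98.9% and 96.4% (intervals 93.8 to 99.8 and 90.0 to 98.8) and ADAR at 95.5% and 95.6%. ISG20 and IFI35, the genes most raised by s4U, were marked at 94.7% and 95.4% and at 96.6% and 92.1%. Intervals cover counting error only.

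The least marked genes were IFI6 and the class I heavy chains. IFI6, a membrane protein that limits flavivirus replication, was marked in 18 of 127 and 16 of 89 fragments, or 14.2% (95% Wilson interval 9.16 to 21.3) and 18% (11.4 to 27.2). HLA-C was marked at 31.9% (30.6 to 33.1) and 27.7% (26.4 to 29.1), and HLA-B at 34.0% (32.3 to 35.8) and 30.2% (28.4 to 32.0). With acrylonitrile alone the pooled shares of the 3 genes were 4.74%, 5.11% and 4.88%, so the low values stood above their own background. B2M followed among the antigen presentation genes at 48.1% and 48.9%, with 1 mismatch among 60 fragments without s4U, whereas TAP1 was at 94.7% and 87.5%. LGALS3BP, a secreted glycoprotein, was marked at 58.2% and 57.8% but carried mismatches in 22.7% and 28.3% of fragments without s4U.

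**Figure D3:**
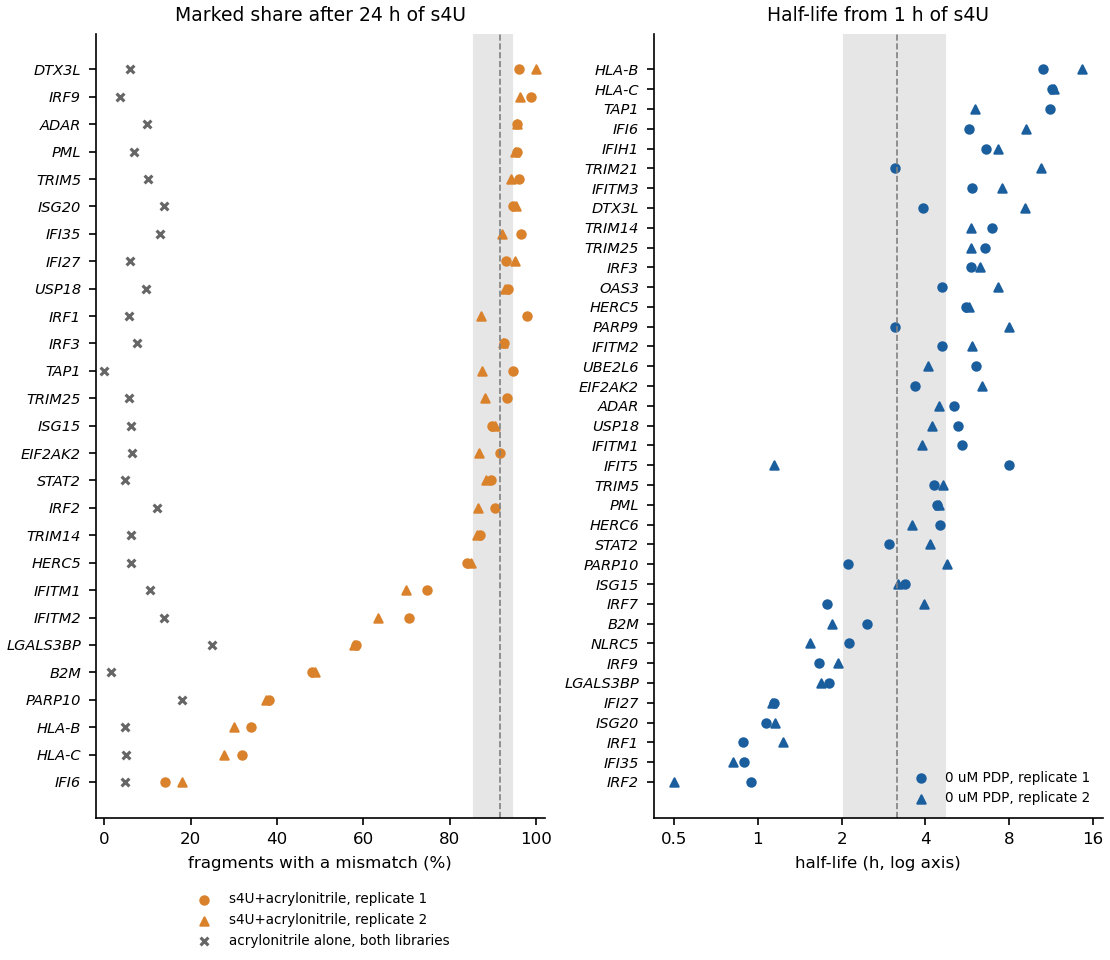
Left, percent of fragments with a mismatch after 24 h of s4U in the 2 libraries of the combined group (circles, triangles) and with acrylonitrile alone (crosses, both libraries pooled); right, half-life in hours on a log axis in the 2 libraries at 0 µM PDP; gray bands are the quartiles and broken lines the medians of all genes. IFI6, HLA-C and HLA-B sit lowest on the left, and HLA-B and HLA-C lie among the longest half-lives on the right.

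Half-lives were computed from the labeled share after 1 h of s4U in the 2 libraries at 0 µM PDP, with the formula given in the methods of the study. The 37 genes with a mean of at least 1 FPM (fragments per 1000000 fragments of the library) had a median half-life of 4.74 h, against 3.17 h for 12811 protein-coding genes, whose quartiles were 2.04 and 4.71 h. Of the 37, 19 lay above the upper quartile and 8 under the lower. The formula takes every labeled fragment as new RNA. After subtraction of the background share of mismatches the median was 9.14 h for 31 genes, against 4.77 h for 12222 protein-coding genes. The other 6 genes, IFI6, TRIM21, TAP1, HLA-B, HLA-C and DTX3L, had a labeled share at or below that background in at least 1 library and drop out. These medians thus leave out genes with little label, among them some of the longest half-lives.

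The shortest half-lives belonged to transcription factors and to IFI35. IRF2 gave 0.95 and 0.50 h from 14 of 27 and 12 of 16 labeled fragments (51.9%, 95% Wilson interval 34.0 to 69.3, and 75%, 50.5 to 89.8). IFI35 gave 0.89 and 0.81 h (54.0%, 41.8 to 65.7, and 57.4%, 44.2 to 69.7), and IRF1 0.89 and 1.23 h (54.2%, 41.7 to 66.3, and 43.1%, 30.5 to 56.7). The intervals of these 3 genes overlap, so their order cannot be read. ISG20 and IFI27 followed at 1.07 and 1.15 h and at 1.14 and 1.12 h. Of the 8 genes under the lower quartile, ISG20, IFI35 and IFI27 were higher after 24 h of s4U, whereas NLRC5 (2.13 and 1.53 h) and LGALS3BP (1.81 and 1.69 h) were lower. The labeled shares of LGALS3BP were 31.8% and 33.7%, against 25.1% of its fragments with a mismatch in RNA without s4U. Much of its label was thus background, and its half-life cannot be read as short.

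The longest were HLA-C at 11.4 and 11.6 h, HLA-B at 10.5 and 14.6 h and TAP1 at 11.2 and 6.00 h. Their labeled shares were 5.92% (5.14 to 6.82) and 5.79% (5.03 to 6.65) for HLA-C, 6.36% (5.36 to 7.53) and 4.63% (3.80 to 5.63) for HLA-B, and 6.00% (2.06 to 16.2) and 10.9% (5.10 to 21.8) for TAP1. The same genes carried mismatches in 5.11%, 4.88% and 0 of 59 fragments without s4U. The shares of HLA-C and HLA-B thus lay close to their own background, and those of TAP1 rest on 3 and 6 labeled fragments. B2M, low in marked share after 24 h, was labeled in 11 of 45 and 15 of 48 fragments after 1 h.

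The PDP experiment asks how the drug changes RNA while it is being labeled, and total RNA is given first. Of 39 genes with a mean of at least 1 FPM, 14 were higher and 3 lower at 4 µM (edgeR, Benjamini-Hochberg over 15473 genes), against 51.4% of all genes higher and 6.99% lower, 58.3% in all. The shares of the interferon-stimulated genes were 35.9% and 7.69%. At 8 µM, 15 were higher and 3 lower, or 38.5% and 7.69%, against 51.8% and 8.71% of all genes, 60.5% in all. Values were scaled to all fragments of a library, and on that scale the median of all genes was itself 0.32 and 0.33 higher on the log2 scale. The medians of the 39 genes were 0.28 and 0.26, with 17 above and 22 below the median of all genes at each dose. With TMM scaling, 7 were higher and 8 lower at 4 µM, and 5 and 9 at 8 µM. The comparisons with 0 µM share those libraries. They held 9770956 and 10564894 fragments, against 18373693 to 22363992 in the libraries with PDP. The share of fragments in genes was 82.6% and 83.0% without PDP and 86.5 to 89.7% with it. Depth and this share, which enters the scaling, thus went with PDP against no PDP. Their part in the calls against 0 µM cannot be told apart from that of the drug.

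PARP9, B2M and EIF2AK2 were among the genes with the larger changes. PARP9 stood at 1.02 and 1.14 FPM without PDP, at 3.20 and 3.18 with 4 µM and at 2.64 and 3.32 with 8 µM (log2 fold changes 1.55 ± 0.30 and 1.44 ± 0.31, edgeR adjusted p = 3.47e-05 and 0.000124). B2M stood at 4.61 and 4.54, then at 12.3 and 10.3, then at 10.4 and 11.2 (1.30 ± 0.17 and 1.23 ± 0.17, adjusted p = 3.62e-08 and 1.32e-07). EIF2AK2 stood at 17.2 and 13.8, then at 30.5 and 29.1, then at 30.1 and 28.2 (0.95 ± 0.11 and 0.92 ± 0.11, adjusted p = 5.95e-09 and 1.19e-08). For these 3 genes no library with PDP overlapped those without it, though PARP9 rested on 10 and 12 fragments without PDP. DDX58 had 2 and 5 fragments without PDP (0.205 and 0.473 FPM), 1.31 and 1.48 FPM with 4 µM and 1.65 and 0.925 FPM with 8 µM (1.99 ± 0.51 and 1.92 ± 0.52). It passed the filter only through the libraries with PDP, so its call, which is among the 14 and the 15, is not support for a change.

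IFIT5, an IFIT protein that binds RNA with a 5′ triphosphate, was at 1.23 and 1.04 FPM without PDP, at 2.75 and 2.51 with 4 µM and at 2.41 and 2.39 with 8 µM (log2 fold changes 1.21 ± 0.30 and 1.08 ± 0.31, edgeR adjusted p = 0.000895 and 0.00318). HERC6 was at 0.716 and 1.61, then 2.16 and 2.46, then 1.88 and 2.67 (0.97 ± 0.33 and 0.92 ± 0.34). Without PDP, IFIT5 rested on 12 and 11 fragments and HERC6 on 7 and 17. The call of HERC6 was lost without 0 µM replicate 1 (0.52 and 0.48), without 4 µM replicate 2 (0.87) and without 8 µM replicate 2 (0.67). Relative to the shift of the median gene, PARP9 was 1.23 and 1.12 higher, B2M 0.98 and 0.91, IFIT5 0.89 and 0.76, and EIF2AK2 0.63 and 0.59, and under TMM scaling these 4 genes, though not HERC6, were still called at both doses. All 3 IFITM genes tested were higher at both doses, by 0.48 to 0.79, with calls lost under TMM except IFITM1 at 4 µM, and that of IFITM3 lost without any 1 of the compared libraries. IFITM1 also lost its call without 0 µM replicate 1 (0.50 and 0.30) and at 8 µM without 8 µM replicate 1 (0.54), and IFITM2 at 8 µM without either of these libraries (0.29 and 0.40). ADAR stood at 231 and 237, then at 318 and 308, then at 300 and 286 (0.42 ± 0.05 and 0.33 ± 0.05), and STAT2 was higher by 0.42 and 0.37. Under TMM, ADAR was called at 4 µM alone and STAT2 at neither dose, and STAT2 also lost its call without 0 µM replicate 1 (0.36 and 0.31), without 4 µM replicate 2 (0.37) and without 8 µM replicate 1 (0.23). IFIT5 lost its call at 8 µM without 0 µM replicate 2 (0.97).

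The lower genes were the same 3 at both doses. HLA-C stood at 311 and 302 FPM without PDP, at 249 and 244 with 4 µM and at 236 and 244 with 8 µM (log2 fold changes -0.31 ± 0.05 and -0.36 ± 0.05, edgeR adjusted p = 1.26e-06 and 1.47e-07). HLA-B stood at 200 and 192, then at 157 and 168, then at 158 and 152 (-0.27 ± 0.05 and -0.34 ± 0.06, adjusted p = 7.17e-05 and 3.03e-06). IRF3 stood at 111 and 110, then at 96.2 and 100, then at 95.5 and 85.6 (-0.17 ± 0.06 and -0.28 ± 0.07, adjusted p = 0.0247 and 0.000319). Every library with PDP lay below both without it. At 4 µM the call of IRF3 was lost without either 0 µM library (-0.16 and -0.18) and without 4 µM replicate 1 (-0.14). B2M thus rose while its partners in class I molecules, HLA-B and HLA-C, fell.

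ISG15 did not pass the test at either dose. ISG15 was at 7.16 and 4.83 FPM, then at 5.0 and 6.27, then at 6.44 and 5.06, with overlapping groups (log2 fold changes -0.08 ± 0.19 and -0.04 ± 0.19, edgeR adjusted p = 0.742 and 0.871). MX1 did not exceed 0.358, IFIT2 0.179 and IFIT3 0.447 in any library, and OAS1 had 1 fragment in 1 of the 6. IFIT1, not tested for its low mean, was at 0.102 and 0.473, then at 1.58 and 0.896, then at 1.25 and 1.03. IRF1, IRF9, TAP1 and IFIH1 did not pass at either dose (0.11 and 0.23, 0.38 and 0.25, 0.07 and 0.07, 0.25 and 0.11). Between 8 and 4 µM, 0 of 39 genes were called by edgeR, limma or DESeq2 and 0 had an unadjusted p under 0.05, against 0.233% of all genes called higher and 0.0905% lower, 0.323% in all.

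The change with PDP went with the GC content of the transcript. Across the 39 genes, GC content and the log2 fold change had a Spearman rho of -0.65 at 4 µM and -0.66 at 8 µM, and across all genes -0.55 and -0.58. The points share their libraries, and these values are a description. With a GC term per library, chosen after seeing the data, HLA-C and HLA-B were at -0.04 and -0.04 at 4 µM and no longer called, while IRF3 turned to 0.14 and was called higher (edgeR adjusted p = 0.0374). At 8 µM the 3 genes stood at -0.05, -0.07 and 0.07, with no call. PARP9, B2M, IFIT5 and EIF2AK2 were still higher, at 1.35, 1.04, 0.92 and 0.67 with 4 µM. Whether the drug or the making of the libraries set the relation with GC content was not tested.

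**Figure D4:**
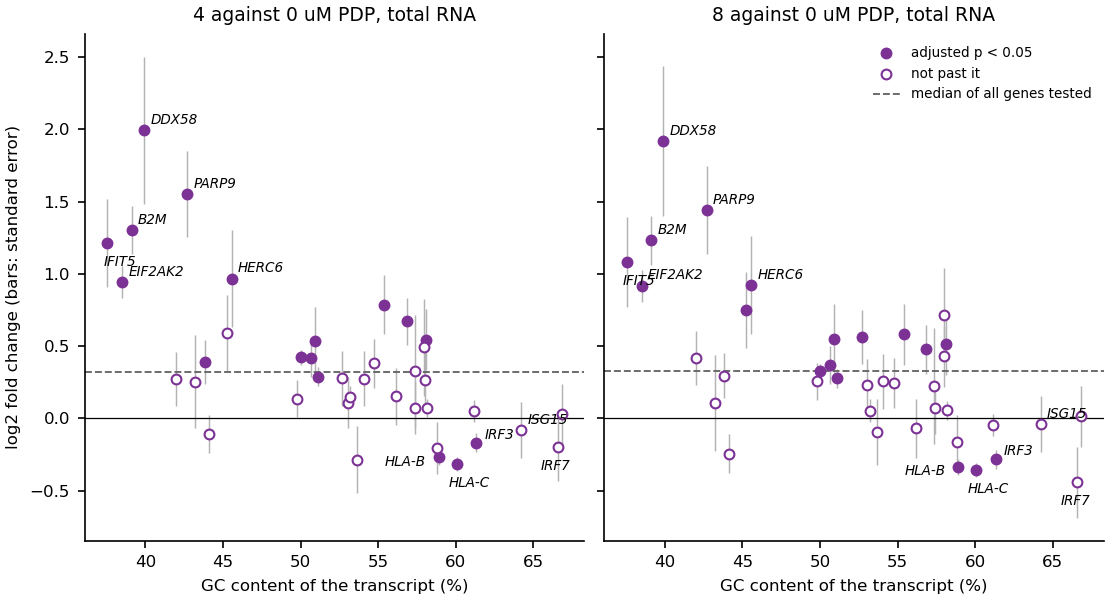
Log2 fold change of total RNA at 4 µM (left) and 8 µM (right) against no PDP, by GC content of the transcript in percent, for the 39 genes tested; bars are standard errors, filled points passed an adjusted p of 0.05 and a broken line marks the median over all tested genes. DDX58, PARP9, B2M, IFIT5 and EIF2AK2 lie at the upper left, and HLA-B, HLA-C and IRF3 at the lower right.

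Labeled RNA is the fragments with a T-to-C mismatch after 1 h of s4U. They made up 17.2% of gene fragments without PDP and 12.5 to 13.8% with it, against 7.65% with a mismatch in RNA without s4U, so labeled RNA holds background besides new RNA. Of 28 genes with a mean of 0.5 labeled FPM, 1 was higher and 5 lower at 4 µM, against 9.24% of all genes higher and 19.8% lower, 29.0% in all (edgeR, over 14236 genes). At 8 µM, 2 were higher and 8 lower, against 10.4% and 27.3%, 37.7% in all. The medians of the 28 were -0.26 and -0.27, and those of all genes -0.03 and -0.11. The shares of these genes that were called were thus near those of all genes, or under them among the higher.

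Of the transcription factors, IRF1 and IRF3 were lower at both doses and IRF9 at 8 µM. Labeled IRF1 stood at 3.28 and 2.08 FPM without PDP, at 1.31 and 1.34 with 4 µM and at 1.16 and 1.69 with 8 µM (log2 fold changes -1.0 ± 0.29 and -0.92 ± 0.30, edgeR adjusted p = 0.00458 and 0.00795). Its total RNA did not change by the test, so the labeled share was 54.2% and 43.1% of fragments without PDP, 23.2% and 22.2% with 4 µM, and 18.6% and 26.1% with 8 µM. Labeled IRF3 stood at 12.5 and 11.5, then at 6.4 and 7.26, then at 6.04 and 5.66 (-0.81 ± 0.15 and -1.03 ± 0.15, adjusted p = 1.27e-06 and 1.02e-09). For both genes every library with PDP lay below both without it. IRF3 was called under all 13 alternatives at each dose, whereas IRF1 lost its call without 0 µM replicate 1 (-0.65 and -0.57) and without 8 µM replicate 1 (-0.65). The labeled share of IRF3 was 11.3% and 10.4% without PDP and 6.32 to 7.25% with it, under its share of 7.50% in RNA without s4U, so its labeled level with PDP lies at background. IRF9 stood at 2.76 and 1.70, then at 1.80 and 1.79, then at 1.03 and 1.58 (-0.79 ± 0.32 at 8 µM, adjusted p = 0.0367), a call lost under 7 of 13 alternatives, among them without 0 µM replicate 1 (-0.41) and without 8 µM replicate 1 (-0.49).

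The class I heavy chains were lower in labeled RNA too. Labeled HLA-B stood at 12.7 and 8.90 FPM, then at 6.89 and 6.90, then at 5.14 and 5.22 (log2 fold changes -0.64 ± 0.15 and -1.05 ± 0.16, edgeR adjusted p = 0.000305 and 3.4e-09). HLA-C stood at 18.4 and 17.5, then at 11.7 and 11.5, then at 10.4 and 11.6 (-0.63 ± 0.12 and -0.71 ± 0.12, adjusted p = 3.63e-06 and 1.28e-07). HLA-B lost its call at 4 µM without 0 µM replicate 1 (-0.37), and HLA-C was called under all 13 alternatives at each dose. The groups did not overlap, but the labeled shares of HLA-B with PDP, 3.25 to 4.39%, lay under its 4.88% without s4U, and those of HLA-C, 4.40 to 4.76%, under its 5.11%. LGALS3BP, whose labeled share with PDP of 22.6 to 25.6% lay near its share of 25.1% without s4U, was lower at both doses (-0.38 ± 0.11 and -0.54 ± 0.12), and PML, the scaffold of nuclear bodies, at 8 µM (-0.44 ± 0.14). Labeled HERC5 stood at 1.64 and 1.51, then at 1.17 and 1.39, then at 0.492 and 0.871 (-1.24 ± 0.40 at 8 µM, adjusted p = 0.0075). Without 8 µM replicate 1, HERC5 was at -0.85 and PML at -0.35, with no call, and each also lost its call without 1 of the 0 µM libraries (-1.18 and -0.40).

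EIF2AK2 and IFITM3 were called higher in labeled RNA. Labeled EIF2AK2 stood at 2.97 and 1.42 FPM, then at 3.70 and 3.58, then at 3.93 and 3.32 (log2 fold changes 0.75 ± 0.25 and 0.75 ± 0.26, edgeR adjusted p = 0.0166 and 0.0131), a call lost at both doses without 0 µM replicate 2 (0.29 and 0.30), without 4 µM or 8 µM replicate 1 (0.72 and 0.61), with DESeq2 (0.74 and 0.74) and with the GC term (0.52 and 0.46). IFITM3 rested on 3 labeled fragments in each library without PDP and stood at 0.307 and 0.284, then at 0.721 and 0.896, then at 1.07 and 0.980 (1.78 ± 0.56 at 8 µM, adjusted p = 0.0065), a call lost without 0 µM replicate 2 (1.73). It passed the filter of a mean of 0.5 labeled FPM only through the libraries with PDP, so this call is not support for a change. In B2M, whose total level rose, the labeled share went the other way, from 24.4% and 31.3% of fragments without PDP (95% Wilson intervals 14.2 to 38.7 and 19.9 to 45.3) to 12.1% and 10.8% at 4 µM and 12.1% and 14.1% at 8 µM. Its labeled level was not called at either dose, at 1.13 and 1.42 FPM, then 1.49 and 1.12, then 1.25 and 1.58. The lower share thus went with more total RNA and not with less labeled RNA. Between 8 and 4 µM, ADAR was the 1 gene called, lower by -0.27 ± 0.08 (adjusted p = 0.0233), against 4.87% of all genes lower and 0.738% higher, 5.61% in all. That call was lost without 4 µM or 8 µM replicate 1 (-0.22 and -0.23), and 6 of the 28 had an unadjusted p under 0.05.

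**Figure D5:**
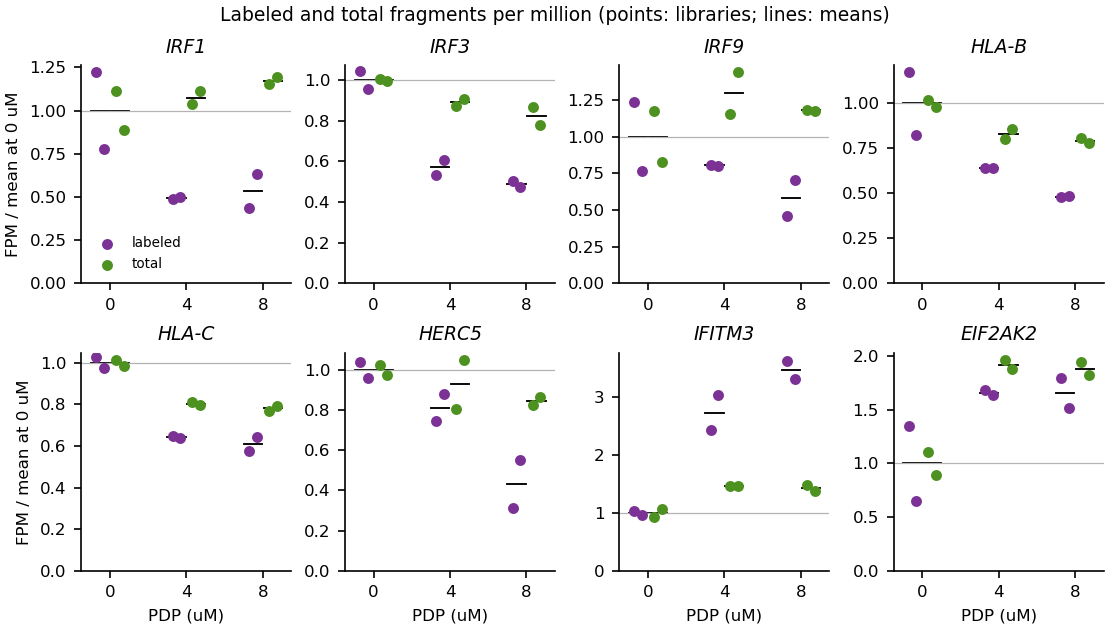
Labeled and total FPM of 8 genes in each library of the PDP experiment, relative to their mean at 0 µM, by dose in µM. Labeled IRF1, IRF3, HLA-B and HLA-C lie below their level at 0 µM in all 4 libraries with PDP, whereas total EIF2AK2 lies above it.

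The labeled share of these genes as a whole was below that of other genes in every library. Its median over the 37 genes with a half-life was 14.6% and 14.3% without PDP, 11.5% and 11.2% at 4 µM, and 12.4% and 11.2% at 8 µM. For protein-coding genes the medians were 19.8% and 20.0%, 15.8% and 15.4%, and 14.5% and 15.2%. Of the other genes of the pathway, 9 of 13 receptors, kinases and feedback genes were higher in total RNA at each dose and 0 lower, and 4 and 6 of 10 sensing adaptors and kinases were higher and 0 lower. Among all genes tested in total RNA, 51.4% and 51.8% were higher at 4 and 8 µM, and 6.99% and 8.71% lower. In labeled RNA the receptor list had 0 genes higher and 2 lower at each dose, the feedback inhibitor SOCS1 (-0.90 and -1.04) and the kinase TYK2 (-0.55 and -0.71), and the sensing list had 0 higher and 3 lower of 9, TICAM1, MAVS and RELA. Among all genes tested in labeled RNA, 9.24% and 10.4% were higher at 4 and 8 µM, and 19.8% and 27.3% lower.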

How the data were processed

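Poly(A) RNA of HEK293T cells was sequenced as paired fragments in 14 libraries, with 2 per group. MCF7 libraries were not analysed here. The authors trimmed reads with cutadapt 1.18, collapsed identical reads to 1, discarded ribosomal RNA by bowtie2, mapped to GRCh37 with HISAT2 2.1.0, and left out mismatches at known polymorphisms or with a base quality under 41. The deposited mismatch tables hold fragment counts per gene, divided by number of mismatches, with the kind of mismatch not named. For the PDP experiment the authors deposited FPM, an RPM-type unit scaled to all fragments of a library, for total and labeled RNA, next to the counts. The sources used here do not give the counting tool. A deposited half-life column was not used, and no column of another series was present. Genes were matched by GENCODE v19 identifier, and promoter windows came from RefSeq on GRCh38.p14.

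Counts were tested with edgeR 4.0.16 (glmQLFit, glmQLFTest) in R 4.3.3 with Benjamini-Hochberg adjustment at 0.05. The first experiment was scaled by TMM after filterByExpr, in 1 fit of 4 groups, and the PDP experiment by all fragments of a library, for genes with a mean of 1 total or 0.5 labeled FPM. Alternatives were other scalings, no filter, DESeq2 1.42.0, limma 3.58.1 with pseudocounts of 0.1 and 1, a replicate block, fits of the compared groups only, leaving out each library and, added after seeing the data, a spline of gene GC content (6 degrees of freedom) per library. The tests were checked on simulated counts. Marked shares needed 20 fragments per library, and half-lives 1 FPM. Tables were made with Python 3.11.15, pandas 2.3.3, NumPy 2.4.6 and SciPy 1.17.1, figures with Matplotlib 3.10.9.

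The 58 genes, their roles and all lists were chosen with earlier results of these data known. Genes were named by rule: up to 6 called genes with the largest change per direction and comparison, 17 canonical genes whatever their change, the 3 lowest and 3 highest by marked share and half-life, and up to 4 called genes per pathway list. Others named, and the neighbors, were chosen after their values were seen. Depth per library bounds the precision. Some genes with few fragments are given with their counts, and others as scaled levels alone.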

Additional observations from a re-analysis of the deposited data

Results flagged for a closer look

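HLA-B drew attention because 24 h of s4U went with a different change in RNA with and without acrylonitrile. The difference, within acrylonitrile minus without, was 0.93 on the log2 scale (SE 0.19, interaction term in edgeR, adjusted p = 0.0484), with log2 fold changes of 0.74 and -0.19. Both libraries of the combined group lay above both of the acrylonitrile group, whereas both s4U libraries lay below the untreated ones. The call was kept under 6 of 14 alternatives. Sharing of reads among class I genes, and the RNA with liver markers in the acrylonitrile libraries, were not tested.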

How the results depend on the processing

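Of the calls and values of single genes, 3708 kept direction and side of the threshold across alternatives, 242 lost their call, 92 gained one and 17 changed sign. Plain library totals gave 6 higher genes for s4U against untreated, and DESeq2 10 lower genes within acrylonitrile. The 1 gene called for the difference of s4U effects became 0 with library totals or DESeq2 size factors and 4 with no filter. For total RNA, TMM gave 7 higher and 8 lower genes at 4 µM and 5 and 9 at 8 µM, and DESeq2 size factors gave 5 and 8 and then 5 and 9. DESeq2 gave 7 higher at 8 µM, and the GC term 0 lower at 4 µM and 1 at 8 µM. For labeled RNA at 4 µM, TMM gave 3 higher, DESeq2 size factors and limma with either pseudocount 2, and DESeq2 0 higher and 3 lower. At 8 µM, DESeq2 gave 0 higher and 4 lower, and the GC term 1 and 5. The lower gene between 8 and 4 µM became 0 with TMM, DESeq2 size factors, DESeq2, limma with either pseudocount and the compared doses only. The median marked share was 79.2% with 2 mismatches required, and the median half-life 9.14 h after background subtraction and 5.35 h with a minimum of 10 FPM. The cause was not tested.

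Leaving out 1 library in turn gave 7 to 12 higher and 13 to 20 lower genes for s4U against untreated, 10 to 13 and 9 to 10 within acrylonitrile, and 0 to 6 higher for the difference. It gave 10 to 12 higher and 2 to 3 lower for total RNA at 4 µM, 9 to 12 and 3 at 8 µM, 0 to 1 and 3 to 5 for labeled RNA at 4 µM, 0 to 2 and 4 to 8 at 8 µM, and 0 to 1 lower between doses. The median marked share was 87.5 to 91.7% and the median half-life 4.39 to 4.48 h. A lone library was assumed to vary like the other groups.

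With the GC term, IRF3 turned to 0.15 for s4U, 0.070 within acrylonitrile, 0.14 at 4 µM and 0.068 at 8 µM, and LGALS3BP to 0.30 in total RNA at 8 µM. With TMM and DESeq2 size factors, total RNA at 4 µM gave -0.0044 and -0.027 for TRIM25, -0.24 and -0.26 for LGALS3BP, and -0.22 and -0.24 for PML. At 8 µM they gave -0.23 and -0.27 for TRIM14, -0.0096 and -0.046 for TRIM25, and -0.23 and -0.27 for PML.

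Replicate numbers did not pair the samples: deviations of same-numbered libraries correlated at -0.03 to 0.17. With a replicate block, 11 genes were higher and 18 lower for s4U against untreated, 12 and 16 within acrylonitrile, 15 and 3 for total RNA at each dose, 1 and 5 for labeled RNA at 4 µM and 2 and 8 at 8 µM.

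With 2 libraries a group, and with under 10 fragments for 15 of the 58 genes in untreated cells, modest changes of those genes were not detectable.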
